A study of Mus musculus with 12 samples.

Results

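The response of cultured fibro/adipogenic progenitors (FAPs) to PDGF-AA was described in cells that had received a control antisense oligonucleotide (AMO), on 4 of the 12 arrays of the study. The 4 were chosen by their titles: 2 arrays of cells with control AMO and PDGF-AA and 2 arrays of cells with control AMO and no PDGF-AA. Their same-numbered replicates were also compared as pairs. FAPs came from uninjured hindlimb muscle of male C57/Bl6 mice aged 8 to 12 weeks, described as wild type, and each replicate pooled the cells of 2 mice. All cells grew for 2.5 days in serum, received 10 µM control AMO for 48 hours in horse serum, and were then transfected again with 10 µM control AMO in reduced-serum medium for another 48 hours. PDGF-AA was present only in that last period, at a dose given as 50 uM, which is high for a growth factor and was not checked here. The other 8 arrays held the same cells with AMOs directed at a polyadenylation site (pA AMO) or a 5' splice site (5'ss AMO), each with and without PDGF-AA. Expression was read on Affymetrix Mouse Gene 1.0 ST arrays, and values are log2 RMA expression values of transcript clusters, the array's units of about 1 gene. Of 35556 clusters, the 21789 with exactly 1 gene symbol were used, which stand for 19938 genes.

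PDGF-AA is a dimeric growth factor that binds and activates PDGFRα, a receptor tyrosine kinase on the surface of mesenchymal cells. The active receptor signals through the RAS-MAPK, PI3K-AKT and phospholipase C pathways, which promote proliferation, migration and survival. In skeletal muscle, PDGFRα marks FAPs, the cells that support regeneration and can give rise to fibroblasts and adipocytes. Its persistent activity is associated with fibrosis. The title of the series concerns the intronic polyadenylation of this receptor's transcripts, and cells with control AMO show what the ligand did when that processing was not targeted.

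FAP markers were bright on the 4 arrays: all 8 defining markers that were measured lay above the dim mark of 6.10, the level that 40% of clusters fall under. Array medians of the 21789 clusters lay between 6.68 and 6.72. Arrays of the same replicate number resembled each other as much as arrays of the same treatment. The correlation across clusters was 0.994 and 0.996 within the numbers, against 0.996 and 0.992 within the groups without and with PDGF-AA. Correlations of the changes in the replicate 1 and replicate 2 pairs were 0.188 over all clusters and 0.343 over the 13073 above the dim mark. These describe clusters, which are not independent replicates.

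With PDGF-AA, most hypoxia-inducible and glycolytic genes had a higher level in both pairs. Single genes with a lower level included the matrix genes Comp and Cilp, Igf1 and Igfbp3, the Wnt antagonists Sfrp1 and Sfrp4, complement C7 and the acute-phase gene Saa3. No cluster passed over all genes. In limma, 0 of 21789 clusters (0%) had a Benjamini-Hochberg adjusted p under 0.05, with a smallest adjusted p of 0.467, and 0 passed with the replicate number as a block, where the smallest was 0.0704. At an unadjusted p under 0.05 there were 1049 clusters (4.81%), of which 669 were higher (3.07%) and 380 lower (1.74%). With no change at all, 5% would arise if the arrays were independent. Same-numbered arrays deviated together and this fit ignores that, so the share does not tell how many clusters changed. The share of higher clusters among the 1049, 63.8%, was 53% after repeated quantile normalization. With the block, 2777 clusters (12.7%) had an unadjusted p under 0.05. Without the block, the 1049 became 532 when the untreated array of replicate 2 was left out and 2221 when the treated array of replicate 2 was left out. Both treated arrays lay on 1 side of both untreated ones in 6760 clusters (31%). An exact permutation test of 2 arrays against 2 cannot go below p = 0.333333, so single genes rest on the spread that limma estimates across arrays.

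A fit of the 4 arrays alone, with the replicate number as a block, called 94 clusters of 90 genes (0.431%), of which 29 rose (0.133%) and 65 fell (0.298%). That fit leaves 1 residual degree of freedom against a prior worth 15.5, so its errors come mostly from the average gene and its calls follow size: every called cluster changed by at least 0.56. Of the 94, 71 lay above the dim mark, 11 of them higher and 60 lower, while 18 of the 23 dim clusters were higher and include olfactory receptors. A fit of all 12 arrays with an intensity trend called 7 clusters (0.0321%). Igf1, Mgp and Col14a1 fell, and Slc16a3 and all 3 clusters of Pgk1 rose. Of these 7, 4 were also called by the paired fit of the 4 arrays. Of the 30 genes with the highest and lowest changes described below, the paired fit of the 4 arrays called all 15 of the lowest. It called 10 of the 15 highest, all but Crabp1, Cxcl17, Fam162a, Nxph4 and Ndufa4l2. The 30 were picked for large changes on these same 4 arrays and the calls follow size, so being called adds no support for them. The adjusted p of the 30 genes in that fit is given for a few. Unless stated otherwise, SEs are those of the main fit of all 12 arrays without the block. They do not belong to the adjusted p of the paired or trend fit printed near them. Further genes it called are named as such where they appear.

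Hypoxia-inducible genes outside glycolysis were the list with the highest median change, 0.32 on the log2 scale, against 0.016 over all genes. These are genes that the transcription factors HIF-1 and HIF-2 are known to induce when oxygen is low. Of 29 measured members, 27 were above 0, 26 were higher in both pairs and 25 did not overlap between groups, while 1 was lower without overlap. Over all genes, 54.4% were above 0, 31.7% were higher in both pairs and 17.9% were higher without overlap. An unadjusted p under 0.05 on the higher side was reached by 20 members, against 3.1% of all genes. The list was chosen with earlier results of these data known, so these counts describe it and do not test it. The list's median was 0.28 in the replicate 1 pair and 0.35 in the replicate 2 pair.

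Among the sequences known to carry HIF binding is a core of 5 bases, and the promoters of 4 of the genes with higher levels are shown because that core recurs in them. Igf1, the gene with the smallest p and a lower level, is set beside them. Each window runs from 250 bases before to 50 after the transcription start, 5′ to 3′ on the gene's strand (RefSeq, GRCm38.p6), and capitals mark ACGTG or GCGTG on either strand. Where matches overlap, the capitals run together. The windows are chr4:43506776-43507075 (plus strand) for Car9, chr11:120948817-120949116 (plus) for Slc16a3, chr7:138909457-138909756 (minus) for Bnip3, chrX:106186850-106187149 (plus) for Pgk1 and chr10:87860861-87861160 (plus) for Igf1.
Car9: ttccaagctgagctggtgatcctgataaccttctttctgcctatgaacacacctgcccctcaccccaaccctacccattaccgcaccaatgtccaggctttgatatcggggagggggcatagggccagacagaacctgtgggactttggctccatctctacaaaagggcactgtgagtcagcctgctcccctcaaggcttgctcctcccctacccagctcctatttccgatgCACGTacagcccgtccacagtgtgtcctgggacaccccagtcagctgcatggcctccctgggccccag
Slc16a3: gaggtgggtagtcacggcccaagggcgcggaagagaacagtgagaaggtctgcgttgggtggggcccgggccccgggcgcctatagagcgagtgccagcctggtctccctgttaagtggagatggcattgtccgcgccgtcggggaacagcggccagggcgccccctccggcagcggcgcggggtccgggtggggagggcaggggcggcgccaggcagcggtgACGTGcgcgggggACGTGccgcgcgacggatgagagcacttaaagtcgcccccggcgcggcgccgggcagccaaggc
Bnip3: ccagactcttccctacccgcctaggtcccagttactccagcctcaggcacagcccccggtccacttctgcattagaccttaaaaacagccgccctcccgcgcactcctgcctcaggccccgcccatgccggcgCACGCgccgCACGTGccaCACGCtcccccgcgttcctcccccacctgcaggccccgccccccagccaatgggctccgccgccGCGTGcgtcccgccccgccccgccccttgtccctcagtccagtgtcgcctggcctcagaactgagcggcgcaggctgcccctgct
Pgk1: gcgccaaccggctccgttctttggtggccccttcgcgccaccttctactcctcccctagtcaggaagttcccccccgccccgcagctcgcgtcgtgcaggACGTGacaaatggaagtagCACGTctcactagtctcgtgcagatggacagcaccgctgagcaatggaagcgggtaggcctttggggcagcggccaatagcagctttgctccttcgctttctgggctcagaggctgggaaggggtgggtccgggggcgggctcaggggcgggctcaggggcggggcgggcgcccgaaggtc
Igf1: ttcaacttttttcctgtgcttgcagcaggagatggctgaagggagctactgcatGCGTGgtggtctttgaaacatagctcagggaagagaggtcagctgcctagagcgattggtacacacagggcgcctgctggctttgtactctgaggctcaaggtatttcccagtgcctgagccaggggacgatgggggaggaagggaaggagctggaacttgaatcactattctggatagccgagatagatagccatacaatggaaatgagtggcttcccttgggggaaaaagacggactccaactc

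There was 1 match in the Car9 window, 2 each in those of Slc16a3 and Pgk1, 5 in that of Bnip3 and 1 in that of Igf1. Over all 32851 promoter windows, 43.8% held at least 1 match. By gene, 20 of the 22 hypoxia-inducible genes with a window held one, as did 15 of 17 glycolysis genes, against 12628 of 27025 genes in all (46.7%) and 8632 of the 15614 genes on the array with a window (55.3%). Of the 15 genes with the lowest changes, described below, 3 of 12 with a window held one, and of the 15 with the highest changes 10 of 11. Both groups were picked on these same changes. The highest include members of the hypoxia-inducible and glycolysis lists, such as Car9 and Slc16a3, so their count is not separate from those of the lists. The motif contains CG, and the lists differed from other genes in CG content. The median window held 25 CG dinucleotides in the hypoxia-inducible list and 20 in the glycolysis list, against 7 over all windows and 15 over genes on the array. It held 8 in the 15 highest and 9 in the 15 lowest genes. In most other lists rich in CG the share of genes was also above that of genes on the array. It was 11 of 14 ribosome biogenesis genes, 12 of 18 mitochondrial, 24 of 35 cell cycle and 10 of 16 cholesterol genes. The Wnt list, with a median of 21 CG, was just below it at 6 of 11 (54.5%). A match of CACGTG, which many other factors bind, also counts here. These matches describe letters in a window, and binding was not measured.

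Car9, a membrane carbonic anhydrase that acidifies the outside of the cell, had the highest change among the genes named by the rule given under processing. Its level was 7.14 and 7.43 without PDGF-AA and 8.14 and 8.20 with it (replicates 1 and 2), a difference of 0.88 (SE 0.155), or 1.84-fold. Both treated arrays lay above both untreated ones, and Car9 passed in the paired fit of the 4 arrays (limma, adjusted p = 0.00473). Egln3, a prolyl hydroxylase that marks HIF for degradation and is itself induced by it, was at 7.52 and 7.37 without and 8.27 and 8.32 with PDGF-AA, higher by 0.85 (SE 0.140). It also passed in that fit (limma, adjusted p = 0.00522), and the groups stood well apart. The related Egln1 was higher by 0.43 (SE 0.096).

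Genes of mitochondrial adjustment to low oxygen were higher as well. Bnip3, which directs mitochondria to autophagy, was measured by 2 clusters, of which one was at 9.66 and 9.67 without and 10.30 and 10.24 with PDGF-AA, a difference of 0.61 (SE 0.119), and the other differed by 0.51. The untreated arrays were nearly equal and the treated ones lay clearly above them. Ndufa4l2, an inhibitor of respiratory complex I under hypoxia, was at 11.39 and 11.55 without and 11.99 and 12.01 with PDGF-AA. Pdk1, the kinase that keeps pyruvate out of the citric acid cycle, was higher by 0.49. Higd1a was higher by 0.42 in the brighter of its 2 clusters and by 0.095 in the other. Fam162a (0.54) and Ankrd37 (0.62) were higher without overlap. Collagen prolyl hydroxylases P4ha1 and P4ha2 were higher by 0.24 and 0.45, the oxidase Ero1a by 0.36 and the vasodilator peptide gene Adm by 0.26. Vegfa, the angiogenic growth factor, differed by only 0.13, and the 2 members below 0 were Angptl4 (-0.22) and Ndrg1 (-0.084).

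**Figure D1:**
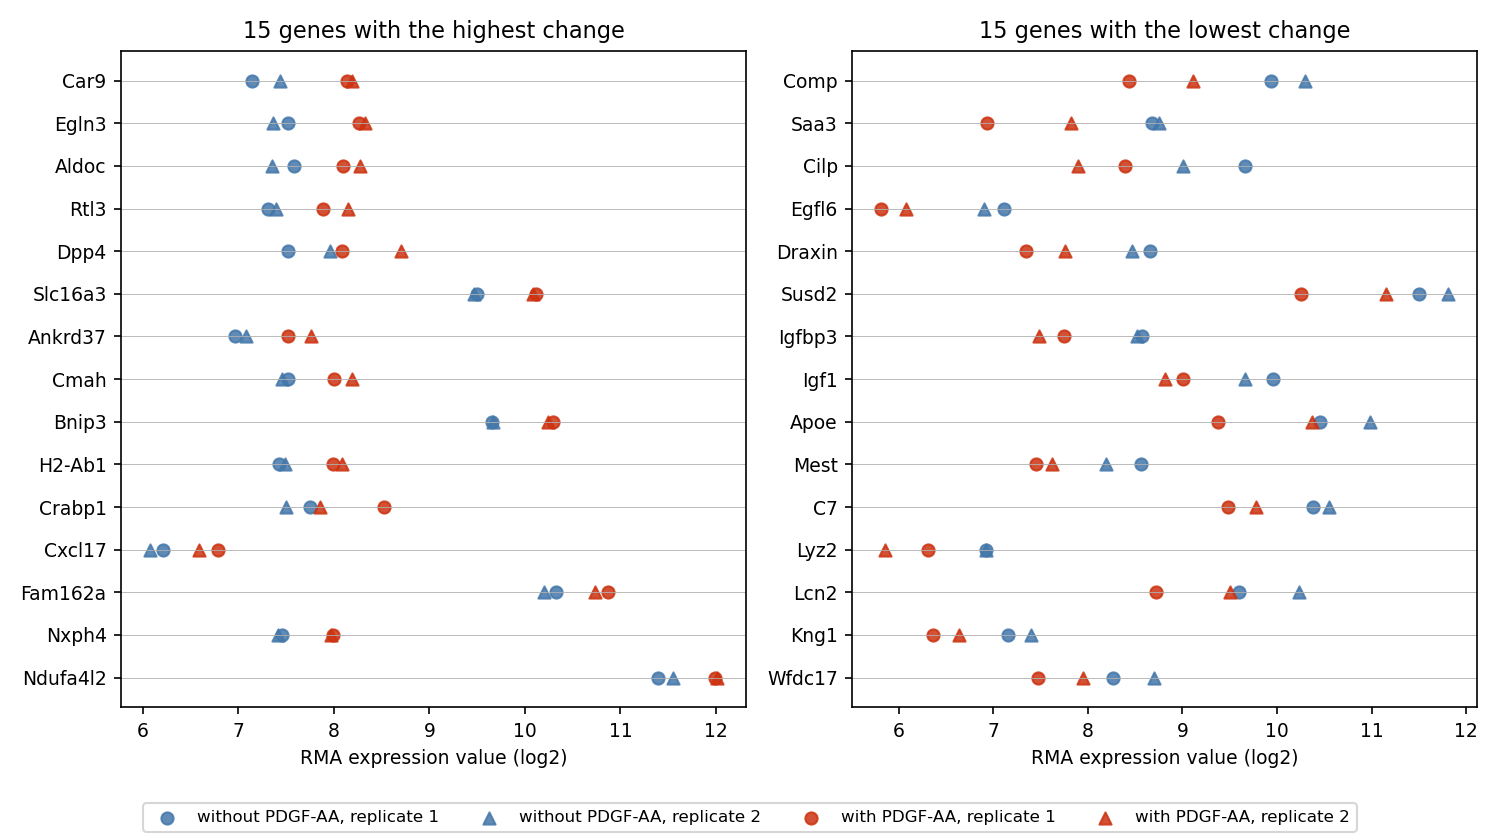
RMA expression values (log2) of the 15 genes with the highest and the 15 with the lowest change among clusters above the dim mark with an unadjusted p under 0.05, 1 direction in both pairs and no overlap, with blue points for arrays without and red points for arrays with PDGF-AA (circles replicate 1, triangles replicate 2). In each gene both red points lie on 1 side of both blue points, which the rule for naming required; the gap is wide in Egln3 and Bnip3 and narrow in Apoe and Lcn2.

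Glycolysis, glucose uptake and lactate export gave a median of 0.32, with 16 of 18 measured genes above 0, 13 higher without overlap and 12 at an unadjusted p under 0.05. Over all genes these shares were 54.4%, 17.9% and, on the higher side, 3.1%. The medians of the pairs were 0.25 and 0.33. The members span the pathway from the glucose transporter to the lactate exporter. At the entry, Slc2a1 (GLUT1) was at 11.21 and 11.29 without and 11.60 and 11.64 with PDGF-AA, higher by 0.37 (SE 0.105), and Hk2, the inducible hexokinase, by 0.50. In the middle, Pfkl was higher by 0.43, Pfkfb3 by 0.34, Aldoa by 0.27 and Tpi1 by 0.43. Aldoc, an aldolase, was at 7.58 and 7.36 without and 8.10 and 8.28 with PDGF-AA, higher by 0.72 (SE 0.130), and passed in the paired fit of the 4 arrays (limma, adjusted p = 0.0209).

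In the lower part of the pathway, Pgk1 was at 11.94 and 11.84 without and 12.39 and 12.31 with PDGF-AA. Its 3 clusters differed by 0.46 each and may share sequence with retrotransposed copies, so they do not count as separate genes. All 3 rose in the fit with an intensity trend (limma, adjusted p = 0.0222). Pgam1 was higher by 0.35, Pkm by 0.29 and Ldha by 0.23. Slc16a3, the lactate exporter MCT4, was at 9.50 and 9.47 without and 10.12 and 10.09 with PDGF-AA, a difference of 0.62 in both pairs (SE 0.103). It passed in the trend fit (limma, adjusted p = 0.0256) and in the paired fit of the 4 arrays (limma, adjusted p = 0.0296). Hk1, the constitutive hexokinase, entered the list at -0.069 by the brighter of its 2 clusters, while the other was at 0.29. Slc2a3 stood at -0.017. Respiratory chain and citric acid cycle genes had a median of -0.076, with 19 of 25 below 0 and 4 lower without overlap, against 45.5% and 12.9% of all genes. Their median was -0.14 in the replicate 1 pair and 0.0048 in the replicate 2 pair.

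The other genes among the 15 highest lie outside these pathways. Dpp4, a surface peptidase of some fibroblast progenitors, was at 7.52 and 7.96 without and 8.08 and 8.70 with PDGF-AA, higher by 0.65 (SE 0.271). Its lower treated array exceeded its higher untreated array by little. Cmah, which hydroxylates sialic acid, was higher by 0.61, the MHC class II gene H2-Ab1 by 0.58 and the retinoic acid binding protein gene Crabp1 by 0.57. Rtl3 (0.67), Cxcl17 (0.55) and Nxph4 (0.54) complete the group.

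Some matrix genes of tendon and cartilage were lower. Comp, a pentameric glycoprotein of tendon and cartilage matrix, was at 9.93 and 10.30 without and 8.43 and 9.11 with PDGF-AA, lower by 1.34 (log2 change -1.34, SE 0.293). Cilp, a matrix protein that binds TGF-β1 and IGF1, was at 9.666 and 9.005 without and 8.39 and 7.89 with PDGF-AA (-1.19, SE 0.379). Neither gene's groups overlapped, and both fell in the paired fit of the 4 arrays (limma, adjusted p = 0.000149 for Comp and 0.000235 for Cilp). Their SEs in that fit were smaller, 0.124 and 0.120. Thbs3 (-0.45) and the tendon gene Tnmd (-0.36) were lower, and the list as a whole had a median of -0.15, with 15 of 18 below 0 and 6 lower without overlap, against 45.5% and 12.9% of all genes. Of its members 11 were lower in both pairs, against 23.9% of all genes, and 4 had an unadjusted p under 0.05 on the lower side, against 1.73%.

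Other matrix genes did not move as a group. Col14a1, a collagen of fibril surfaces, was at 10.59 and 10.30 without and 9.73 and 9.75 with PDGF-AA (-0.71, SE 0.119) and fell in the trend fit (limma, adjusted p = 0.0256). Col15a1 was at -0.67 and fell in the paired fit of the 4 arrays (limma, adjusted p = 0.0384). Col8a1 was higher by 0.46, and the 20 collagen chains had a median of 0.031, with 14 above 0. Mgp, an inhibitor of calcification, was at 10.70 and 10.60 without and 10.07 and 9.96 with PDGF-AA and fell in the trend fit (limma, adjusted p = 0.0222), and the paired fit also called Mgp and Col14a1. Egfl6 was lower by 1.07 on the log2 scale (-1.07, SE 0.222), the collagen-binding proteoglycan Fmod was at -0.71, Olfml2b at -0.57 and periostin (Postn) at -0.60. All 4 fell in the paired fit of the 4 arrays (limma, adjusted p from 0.0021 for Egfl6 to 0.0499 for Olfml2b). In the opposite direction, the laminin chain Lama2 was higher by 0.36 and the basement membrane linker Nid1 by 0.26. Of 38 further matrix proteins 23 were below 0.

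Within the IGF system, the ligand and 2 binding proteins were lower. Igf1, the growth factor that supports muscle fibres and satellite cells, was at 9.96 and 9.66 without and 9.01 and 8.81 with PDGF-AA, a change of -0.90 (SE 0.134) to 0.536 of its untreated level. It had the smallest p of all clusters and fell in the trend fit (limma, adjusted p = 0.0222) and the paired fit of the 4 arrays (limma, adjusted p = 0.00334). Igfbp3, which binds IGFs in the circulation and matrix, was at 8.58 and 8.52 without and 7.74 and 7.48 with PDGF-AA (-0.94, SE 0.192) and fell in the paired fit (limma, adjusted p = 0.00296). Igfbp4 was at -0.26 without overlap. The 14 genes of the system had a median of -0.032, and 9 were below 0.

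Secreted Wnt antagonists differed in both directions. Sfrp1 was at 12.59 and 12.70 without and 11.87 and 12.03 with PDGF-AA (-0.69) and fell in the paired fit of the 4 arrays (limma, adjusted p = 0.0191). Sfrp4 was at 9.28 and 9.52 without and 8.23 and 9.06 with PDGF-AA (-0.76) and fell in the same fit (limma, adjusted p = 0.0250), Sfrp2 was lower (-0.51) and Dkk2 stood at -0.39. Dkk1 and Wif1, antagonists that were dim on these arrays, were higher by 0.39 and 0.40. The 17 Wnt genes had a median of -0.13, with 11 below 0 and 8 lower without overlap, against 45.5% and 12.9% of all genes. Leaving out each array gave medians from -0.21 to -0.023, the last without the treated array of replicate 2.

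Acute-phase, chemokine and complement genes were lower in part. Saa3, an acute-phase protein, was at 8.67 and 8.76 without and 6.93 and 7.82 with PDGF-AA (-1.34, SE 0.319), with the treated arrays far apart from each other and below both others. It fell in the paired fit of the 4 arrays (limma, adjusted p = 0.00109), where its SE was 0.154. Lcn2, an iron-sequestering protein induced by inflammation, was at 9.60 and 10.24 without and 8.72 and 9.50 with PDGF-AA (-0.81, limma, adjusted p = 0.00668 in that fit). The chemokines Ccl19 and Ccl8 and the alarmin Il33 were at -0.63, -0.45 and -0.38, and Il6 was at -0.34. Several near-identical copies of Ccl19 exist in the mouse genome, so its 5 clusters, of which the paired fit called 4, are uncertain. The list of 29 had a median of -0.16, with 20 below 0 and 11 lower without overlap, against 45.5% and 12.9% of all genes. Its median ran from -0.21 to -0.014 with each array left out, the last again without the treated array of replicate 2.

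Complement C7, a component of the membrane attack complex, was at 10.38 and 10.55 without and 9.48 and 9.78 with PDGF-AA (-0.84, SE 0.222) and fell in the paired fit of the 4 arrays (limma, adjusted p = 0.00522). C2, a protease of the classical pathway, was at 9.55 on both untreated arrays and 9.06 and 9.07 with PDGF-AA (-0.48). Cfb, its counterpart in the alternative pathway, was at -0.34. Of 14 complement genes 10 were below 0, with a median of -0.14. That median was -0.055 without the treated array of replicate 1 and -0.29 without that of replicate 2.

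Precursor genes of kinins and angiotensin were lower too. Kng1 (kininogen) was at 7.15 and 7.40 without and 6.36 and 6.64 with PDGF-AA (-0.78), and fell in the paired fit of the 4 arrays (limma, adjusted p = 0.00794). With the replicate block over all 12 arrays it had the smallest adjusted p, which did not pass (limma, adjusted p = 0.0704). Its near-identical paralog Kng2 may share its probes. Agt (angiotensinogen) was at -0.62 and the peptidase gene Mme at -0.70, and both fell in the paired fit (limma, adjusted p = 0.0296 and 0.0204). The lipid carrier Apoe (-0.85), Susd2 (-0.95), the axon guidance protein gene Draxin (-1.01), the imprinted gene Mest (-0.84) and Wfdc17 (-0.77) complete the lowest 15 with Lyz2, given with the leukocyte markers below.

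**Figure D2:**
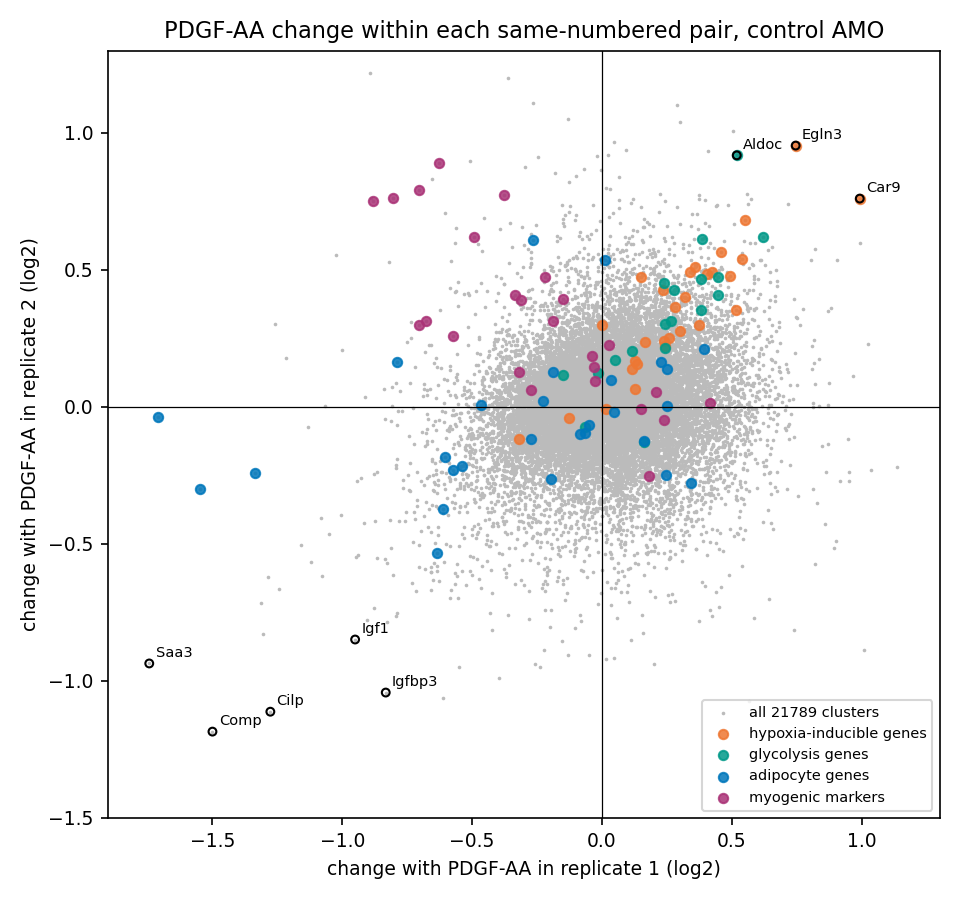
Change with PDGF-AA (log2) of each of 21789 clusters in the replicate 1 pair (horizontal) and the replicate 2 pair (vertical), with 4 gene lists coloured and 8 genes named. Hypoxia-inducible and glycolysis genes lie mostly in the upper right, higher in both pairs, while myogenic markers lie mostly in the upper left and adipocyte genes are spread along the horizontal axis.

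The PDGF system itself differed little. Pdgfra, the receptor of PDGF-AA, was at 12.75 and 12.75 without and 12.75 and 12.78 with PDGF-AA, a difference of 0.018 (SE 0.087). Pdgfrb, the receptor of PDGF-BB and PDGF-DD, was higher by 0.14 (SE 0.115) and the pseudo-receptor gene Pdgfrl was at -0.28. Among ligands, Pdgfd was at 8.18 and 8.03 without and 8.49 and 8.41 with PDGF-AA, higher by 0.34 (SE 0.107) with no overlap, whereas Pdgfa was at -0.14, Pdgfc at -0.22 and Pdgfb at 0.15. None passed in limma in any fit.

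Immediate early and MAPK feedback genes, which respond to receptor signalling within hours, had a median of 0.024 at 48 hours, with 16 of 29 above 0. Ier3, a survival gene induced by growth factors, was at 8.39 and 8.25 without and 8.70 on both arrays with PDGF-AA, higher by 0.38. Spry2, a feedback inhibitor of receptor tyrosine kinases, was higher by 0.31. The early transcription factor genes Fos (-0.25), Egr2 (-0.23) and Nr4a1 (-0.26) were below 0. Of 27 signalling proteins, 20 were below 0 with a median of -0.048, and Sos1, the RAS exchange factor, was at -0.31. The median of these proteins was -0.11 in the replicate 1 pair and 0.026 in the replicate 2 pair. It was 0.062 without the treated array of replicate 1.

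Cell cycle genes differed between the pairs, with a median of -0.062 in replicate 1 and 0.20 in replicate 2 over 45 genes. D-type cyclins, which start G1 progression, were higher. Ccnd1 was at 9.81 and 9.45 without and 10.01 and 10.00 with PDGF-AA (0.38, SE 0.188) and Ccnd2 at 11.54 and 11.42 without and 11.74 and 11.80 with it (0.29, SE 0.106). The ubiquitin-conjugating enzyme of mitotic exit, Ube2c, was higher by 0.38, while Ccne2 (-0.18), Rrm1 (-0.17) and Mcm4 (-0.16) were lower without overlap. Of the 45 genes 26 were above 0, 8 were higher without overlap and 4 were lower without it. Over all genes the shares were 54.4%, 17.9% and 12.9%. The CDK inhibitors Cdkn2b (-0.31) and Cdkn2c (-0.34) were lower, but 3 of the 6 measured were above 0. Cholesterol synthesis genes had a median of 0.12, with 18 of 20 above 0 and 12 higher without overlap, against 54.4% and 17.9% of all genes. Of the 20, however, 0 had an unadjusted p under 0.05. Insig1, a sterol-regulated brake on this pathway, was higher by 0.29, and the list's median was 0.048 without the treated array of replicate 1 and 0.22 without that of replicate 2.

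Myofibroblast and contractile genes had a median of -0.16, with 9 of 12 below 0 and 4 lower without overlap, against 45.5% and 12.9% of all genes. The list's median was -0.072 without the untreated array of replicate 1 and -0.29 without that of replicate 2. The collagen-binding integrin gene Itga11 was at 10.38 and 10.46 without and 9.94 and 9.99 with PDGF-AA (-0.45). Acta2 (smooth muscle actin) was at 9.86 and 8.98 without and 9.03 and 8.20 with PDGF-AA. Its groups overlapped and the replicates differed by about as much as the treatment, but it was lower by a like amount within each pair and fell in the paired fit of the 4 arrays (limma, adjusted p = 0.0063). Of the TGF-β and BMP genes, the TGF-β target Tgfbi (-0.50) and the BMP antagonist Chrdl1 (-0.50) were lower and Bmp6 (0.39) was higher, with a median of -0.037 over 22. Among growth factors, Gas6, the ligand of the TAM receptors, was at 12.78 and 12.91 without and 12.20 and 12.40 with PDGF-AA (-0.55), and Angpt1, a ligand of endothelial TIE2, was also at -0.55.

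**Figure D3:**
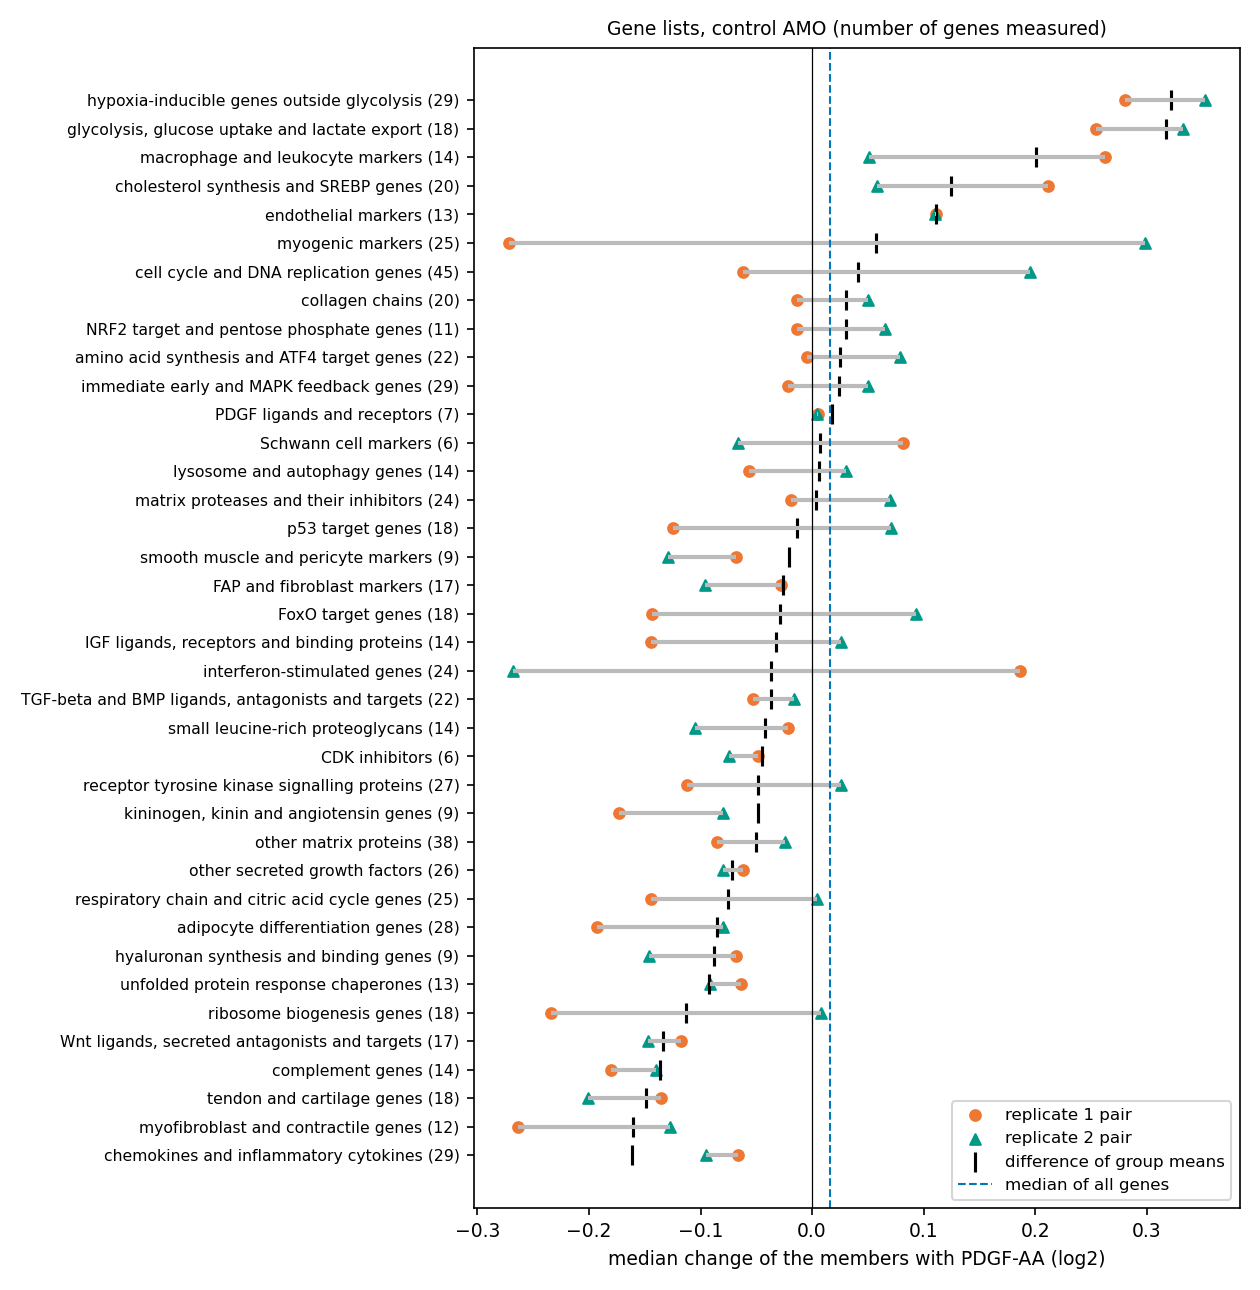
Median change with PDGF-AA (log2) of the members of 38 gene lists in the replicate 1 pair (circles), the replicate 2 pair (triangles) and between group means (bars), with the number of genes measured in parentheses and the median of all genes as a dashed line. The hypoxia and glycolysis lists lie between 0.25 and 0.35 in both pairs, and the myogenic and interferon lists lie on opposite sides of 0 in their 2 pairs.

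Adipocyte genes varied more with the replicate than with PDGF-AA, and muscle and interferon genes differed in opposite directions in the 2 pairs. Cd36, a fatty acid transporter of adipocytes, was at 6.54 and 8.26 without and 4.999 and 7.96 with PDGF-AA, and Fabp4 at 7.82 and 9.23 without and 6.48 and 8.99 with it. Both replicate 2 arrays were higher than both replicate 1 arrays, and the SEs of 1.08 and 0.960 exceed the changes of -0.92 and -0.79. Within the pairs, Cd36 was at -1.55 and -0.30, and it fell in the paired fit of the 4 arrays (limma, adjusted p = 0.0475). Plin1, which coats lipid droplets, was at -0.63 and -0.53 in the pairs and also fell in that fit (limma, adjusted p = 0.0406). Pparg, the master regulator of adipogenesis, was at -0.40. Over 28 adipocyte genes 18 were below 0 and 0 were lower without overlap, against 45.5% and 12.9% of all genes. Embryonic myosin Myh3 was at 8.82 and 7.20 without and 8.19 and 8.09 with PDGF-AA, and the myogenic list had a median of -0.27 in replicate 1 and 0.30 in replicate 2. Interferon-stimulated genes went the other way, at 0.19 and -0.27.

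**Figure D4:**
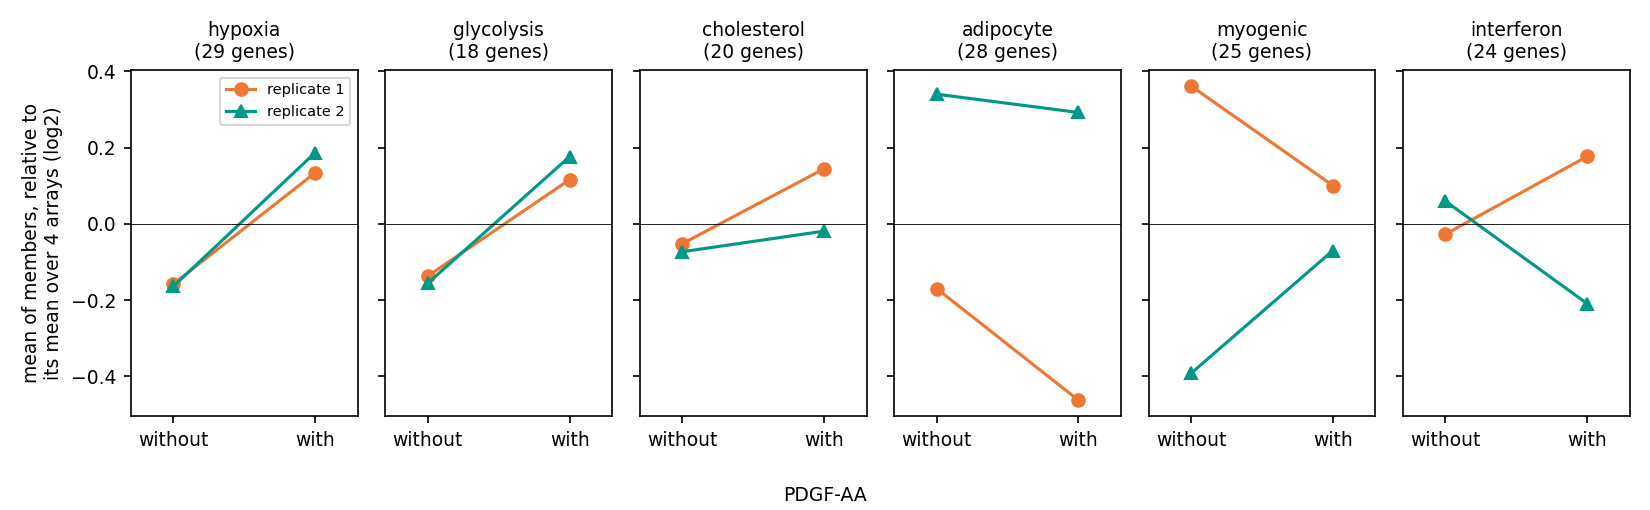
Mean log2 level of the members of 6 gene lists on each of the 4 arrays, relative to the list's mean over the 4, with lines joining the arrays of a replicate number without and with PDGF-AA. The hypoxia and glycolysis lines run upwards together, adipocyte genes separate the replicates, and the 2 lines of the myogenic and of the interferon list run in opposite directions.

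Markers of other cells were measured as well. Summed on the linear scale, the 7 defining myogenic markers stood at 2976 and 1176 without and 1983 and 1775 with PDGF-AA, so their range without PDGF-AA contained that with it. The 3 adipocyte markers summed to 486 and 1240 without and 252 and 1049 with it. Defining leukocyte markers summed to 296 and 261 without and 274 and 259 with it, with Ptprc, Csf1r and Itgam (3 of 4) under the dim mark on all 4 arrays, and endothelial Pecam1 and Kdr (2 of 4) lay under it as well. The 4 endothelial markers summed to 649 and 738 without and 639 and 868 with PDGF-AA, and the list of 13 had a median of 0.11, with 10 above 0. The 4 smooth muscle and pericyte markers summed to 406 and 387 without and 335 and 337 with PDGF-AA, lower without overlap, and the list of 9 had a median of -0.021, with 5 below 0. That median was 0.017 after repeated quantile normalization and 0.0089 without the untreated array of replicate 1. The 3 tendon markers summed to 297 and 319 without and 295 and 281 with PDGF-AA, and Sox10, the measured Schwann marker, to 84.3 and 78.2 without and 87.6 and 73.8 with it. On arrays no marker is at 0. Lyz2, a lysozyme of macrophages, was at 6.92 on both untreated arrays and 6.31 and 5.86 with PDGF-AA (-0.84, SE 0.196), and Cd14 (-0.33) and Cd68 (-0.24) were lower, while dim Mrc1 (0.43) and Ptprc (0.33) were higher. The pericyte channel genes Abcc9 (-0.61, called in the paired fit) and Kcnj8 (-0.39) were lower, and Rgs5 and Myh11 (2 of 4 smooth muscle and pericyte markers) lay under the dim mark. In cultures of mixed cells, fewer cells of a type and less RNA per cell cannot be told apart. The part of these cells in the lower inflammatory, complement and matrix genes was not tested.

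The study's other AMOs show whether the same genes differed when PDGF-AA was given with pA AMO or 5'ss AMO, on arrays that share none with the control AMO, although same-numbered arrays deviated together across AMOs. Of the 15 genes with the highest change, 14 were higher with PDGF-AA with pA AMO (median 0.45) and 8 with 5'ss AMO (median 0.021), against 47.4% and 48% of all clusters. Of the 15 lowest, 15 were lower with pA AMO (median -0.69) and 9 with 5'ss AMO (median -0.034), against 52.6% and 52%. In both pairs, the direction was that of the control AMO for 14 of the highest and 15 of the lowest genes when pA AMO was used. With 5'ss AMO it was so for 5 and 6. Over all clusters, the shares higher and lower in both pairs were 24.2% and 27.6% with the first AMO and 22.8% and 25.6% with the second. Genes chosen for extreme values tend to be less extreme in any other arrays.

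Car9 differed by 0.79 (SE 0.155) with pA AMO and -0.10 (SE 0.155) with 5'ss AMO. Comp was at -1.36 (SE 0.293) with pA AMO and 0.076 (SE 0.293) with 5'ss AMO. Cilp stood at -0.80 and -1.18 and Igf1 at -0.34 and -0.56, so both were lower with all 3 AMOs. The hypoxia list had a median of 0.29 when pA AMO was used and 0.031 when 5'ss AMO was used, and the glycolysis list 0.25 and 0.021. Differences between the PDGF-AA changes did not pass for any gene. In limma 0 of 21789 clusters passed for pA AMO minus control AMO (smallest adjusted p = 0.999633, 564 clusters or 2.59% at an unadjusted p under 0.05). Likewise 0 passed for 5'ss AMO minus control AMO, where 643 clusters or 2.95% were at an unadjusted p under 0.05. With the replicate block 0 passed for either (smallest adjusted p = 0.450 and 0.362), with 1863 and 1731 clusters at an unadjusted p under 0.05. Leaving out each array moved the 564 to between 320 and 1420 and the 643 to between 377 and 1308, both highest without the treated control AMO array of replicate 2. The lowest were without the untreated pA AMO array of replicate 1 and the untreated control AMO array of replicate 2. For Aldoc, the 5'ss AMO change was 0.86 below that with control AMO (-0.86, SE 0.184, limma, adjusted p = 0.999983), and for Comp it was 1.42 above (SE 0.414). Among the genes with the smallest p for the difference between pA AMO and control AMO was Stmn2 (0.87, SE 0.154). The dim gene Fbxo48 was among those with the smallest p for both AMOs (0.78 and 0.81).

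**Figure D5:**
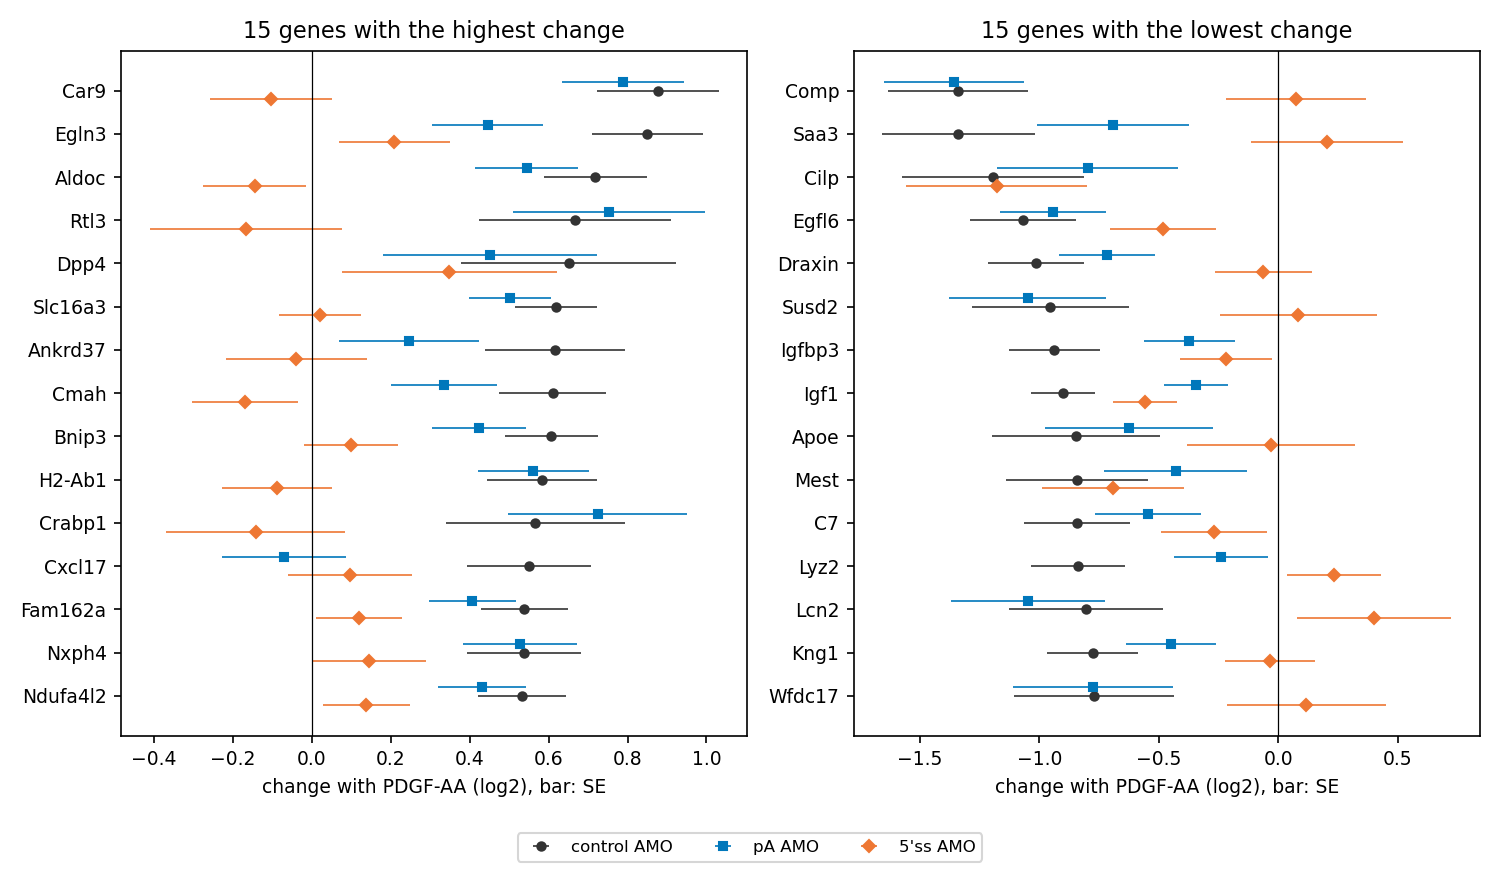
Change with PDGF-AA (log2, bars of 1 SE from limma) of the 15 highest and 15 lowest genes with control AMO (black circles), pA AMO (blue squares) and 5'ss AMO (orange diamonds). The genes were chosen on the control AMO values; on the same side of 0 lie 14 and 15 of the blue squares and 8 and 9 of the orange diamonds.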

How the data were processed

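The authors deposited log2 values made by RMA with the Affymetrix Expression Console software (versions not stated), per the submitters' processing notes. RMA corrects background, quantile-normalizes arrays together and summarises probes, which can compress large changes. Symbols came from the platform annotation. Of 35556 clusters, 1621 had several symbols and 12146 were not listed, and neither were used. Limma 3.58.1 (R 4.3.3) fitted the 6 groups on all 12 arrays (6 residual degrees of freedom), with no intensity trend or robust fitting, and adjusted p by Benjamini-Hochberg over 21789 clusters (threshold 0.05). The model was run on simulated data with planted changes larger than most described here, so that run does not cover smaller changes.

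The deviations of same-numbered arrays from group means correlated at 0.20 to 0.61 in all 15 pairs of groups, so the numbers pair the samples, as the data show and the labels do not say. The block fit has 5 residual degrees of freedom. Replicates pool cells of different mice as far as stated. The number of arrays limits the precision.

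Named genes are the PDGF genes, the 15 highest and 15 lowest changes among the 469 clusters (184 higher, 285 lower) with a mean above 6.10, an unadjusted p under 0.05, 1 direction in both pairs and no overlap, the smallest p, and up to 6 members of each list described plus the one furthest the other way. Other list members were named after their values were seen. Predicted genes and olfactory receptors were not named. A gene with several clusters entered its list by the brightest. Members and lists were chosen with earlier results of these data known. Alternatives were the block, the 4 arrays alone, filters on dim clusters, all clusters, another quantile normalization, centring on medians, moderation with trend or robust, weighted arrays, and each array left out.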

Additional observations from a re-analysis of the deposited data

Results flagged for a closer look

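In 4 gene lists, the median change with PDGF-AA had one sign in both pairs with control AMO and the opposite sign in both pairs with another AMO. These differences were not tested, and each is small. PDGF ligands and receptors (7 genes) had a median of 0.018 with control AMO and -0.079 with 5'ss AMO, and the former was -0.022 without the treated array of replicate 1. Other matrix proteins (38 genes) were at -0.051 with control AMO and 0.017 with pA AMO, and the former was 0.0032 without that same array. CDK inhibitors (6 genes) were at -0.045 with control AMO and 0.062 with pA AMO. Macrophage and leukocyte markers (14 genes, of which 4 lay above the dim mark) were at 0.20 with control AMO and -0.053 with pA AMO. The value with control AMO was itself -0.28 with dim clusters left out and -0.011 without the treated array of replicate 1.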

How the results depend on the processing

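With the replicate number as a block, which is the paired analysis, 0 clusters passed for the PDGF-AA change with control AMO or for its difference from either other AMO, as without it, while the clusters at an unadjusted p under 0.05 went from 1049 to 2777, an alternative added after seeing the data. The 4 control AMO arrays alone with the block gave 94 calls and the intensity trend gave 7. The count stayed at 0 to 0 when each array was left out in turn, and at 0 under every other alternative. Of 46 named genes, only Pdgfb changed sign, to -0.0221 without the treated array of replicate 1, over a range of -0.0221 to 0.3214 with each array left out. The medians of the hypoxia, glycolysis, tendon, Wnt, inflammatory, complement, myofibroblast and cholesterol lists kept their sign under all 8 alternatives, while 21 of 38 lists changed sign in at least 1. The median change over all clusters, 0.0121 in the main analysis, was 0.0055 after repeated quantile normalization and 0.0035 after median centring.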
